A study of Mus musculus with 28 samples.

Results

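IAPEz proviruses flanked by IAPLTR2 long terminal repeats (LTRs) are one branch of the intracisternal A-particle (IAP) endogenous retroviruses of the mouse, and their RNA was followed here integrant by integrant, that is, copy by copy in the genome. An integrant was taken when the name of its merged repeat annotation held IAPEz-int, the internal part of the provirus, together with an LTR name starting with IAPLTR2 and none starting with IAPLTR1. In all, 1212 integrants carried such a name, out of 3404964 transposable element (TE) integrants counted. Of these, 968 had at least 16 reads summed over the 16 RNA libraries and entered the tests, 224 had 1 to 15 reads and 20 had none. The 968 tested integrants, called IAPLTR2 proviruses below, were among 123880 TEs tested. The read minimum was reached mostly through the Kap1-depleted libraries: the 61 integrants with 16 to 20 reads had 96.9% of these reads there, as did the 57 integrants just below the minimum, with 11 to 15 reads, for 96.6%. Counts and medians over the tested integrants therefore describe them and no others, whereas the sums over the whole branch run over all 1212. Sums by length or LTR subtype, given further on, run over the 968 tested integrants and share their selection.

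The cells were J1 mouse embryonic stem cells of the 129S4/SvJae background, kept naive in 2i and LIF, with 3 genotypes, each represented by a single line: wild type (WT), DNMT TKO (Dnmt1, Dnmt3a and Dnmt3b knocked out) and TET TKO (Tet1, Tet2 and Tet3 knocked out). All cells, controls included, carried a puromycin-selected lentiviral hairpin vector, either empty (shEmpty) or directed against Kap1 (shKap1), and were collected on day 5. RNA was sequenced from 3 independent experiments for each hairpin in WT and DNMT TKO and from 2 in TET TKO, so that a line and its genotype cannot be told apart. H3K4me3 and H3K27me3 regions and reads of hydroxymethylated DNA (5hmC) came from the same series, as did lists of KAP1 and H3K9me3 regions, which rest on ChIP data that the study took from earlier work. The reads were mapped once and uniquely to the C57BL/6 reference (mm9). The level of a provirus therefore also depends on how unique its sequence is and on whether each line carries it. The DNMT TKO and TET TKO cells came to the study from different laboratories.

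KAP1, the product of Trim28, is a corepressor that KRAB zinc finger proteins bring to retroelements, where it nucleates H3K9me3 through the methyltransferase SETDB1. IAPs are among the youngest and still mobile retroviruses of the mouse genome. The paper describes IAPEz with IAPLTR2 as older and less active than those with IAPLTR1. In most tissues IAPs are kept silent by DNA methylation as well. DNMT enzymes write and copy that methylation, while TET enzymes oxidise it to 5hmC. The LTR at the 5′ end holds the promoter of the provirus.

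The first 300 bases of 6 IAPLTR2 proviruses, which lie in or span the 5′ LTR, are given with every CG, the site of DNA methylation, in capitals (5′ to 3′ on the strand of the provirus, genome build mm9). The first 3 belong to the proviruses of each IAPLTR2 subtype with the most reads, and the other 3 to proviruses whose response to Kap1 depletion differed between genotypes.
chr5:110366079-110366378 (minus strand, IAPLTR2_Mm, from chr5:110363048-110366378): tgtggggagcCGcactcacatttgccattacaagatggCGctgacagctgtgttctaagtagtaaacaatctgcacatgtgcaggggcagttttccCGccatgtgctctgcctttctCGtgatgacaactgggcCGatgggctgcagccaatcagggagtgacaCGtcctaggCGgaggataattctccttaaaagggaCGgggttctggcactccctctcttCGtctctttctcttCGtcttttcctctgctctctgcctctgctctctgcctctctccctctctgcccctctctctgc
chr1:181824040-181824339 (plus strand, IAPLTR2a, from chr1:181824040-181831299): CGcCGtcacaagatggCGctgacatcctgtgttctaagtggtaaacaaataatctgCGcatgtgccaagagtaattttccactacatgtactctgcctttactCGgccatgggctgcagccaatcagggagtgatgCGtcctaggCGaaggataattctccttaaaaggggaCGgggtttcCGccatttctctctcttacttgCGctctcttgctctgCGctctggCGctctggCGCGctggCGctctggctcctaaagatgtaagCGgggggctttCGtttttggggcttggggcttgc
chr4:60051921-60052220 (minus strand, IAPLTR2b, from chr4:60045742-60052220): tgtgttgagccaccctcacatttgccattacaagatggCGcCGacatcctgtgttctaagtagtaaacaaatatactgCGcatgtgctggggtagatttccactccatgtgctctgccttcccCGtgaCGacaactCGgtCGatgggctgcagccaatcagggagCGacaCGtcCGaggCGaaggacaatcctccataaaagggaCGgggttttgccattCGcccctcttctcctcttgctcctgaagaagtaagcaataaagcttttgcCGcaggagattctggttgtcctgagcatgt
chr11:104723344-104723643 (minus strand, IAPLTR2b, from chr11:104720930-104723643): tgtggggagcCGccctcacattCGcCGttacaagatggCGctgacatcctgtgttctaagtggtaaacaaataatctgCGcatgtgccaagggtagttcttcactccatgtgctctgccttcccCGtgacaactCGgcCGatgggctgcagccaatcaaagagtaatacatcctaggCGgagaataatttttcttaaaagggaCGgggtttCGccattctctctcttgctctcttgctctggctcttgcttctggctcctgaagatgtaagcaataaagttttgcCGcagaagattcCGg
chr1:57645376-57645675 (minus strand, IAPLTR2b, from chr1:57641940-57645675): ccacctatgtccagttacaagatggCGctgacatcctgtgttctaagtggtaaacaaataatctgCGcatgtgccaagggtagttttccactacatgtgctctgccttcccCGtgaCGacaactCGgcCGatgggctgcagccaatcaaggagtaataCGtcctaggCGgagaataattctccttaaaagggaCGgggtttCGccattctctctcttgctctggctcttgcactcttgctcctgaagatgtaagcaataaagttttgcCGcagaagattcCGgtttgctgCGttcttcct
chr8:79824682-79824981 (plus strand, IAPLTR2_Mm, from chr8:79824682-79828583): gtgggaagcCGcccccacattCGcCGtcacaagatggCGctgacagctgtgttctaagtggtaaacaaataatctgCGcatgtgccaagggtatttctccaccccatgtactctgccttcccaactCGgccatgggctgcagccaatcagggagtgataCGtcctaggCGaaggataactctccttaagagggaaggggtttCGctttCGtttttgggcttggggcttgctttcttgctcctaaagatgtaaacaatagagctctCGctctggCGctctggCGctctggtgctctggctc
These windows held 10 to 17 CG and were 64.5% to 83.1% identical in pairwise global alignments. The highest identity was between chr11:104720930-104723643 and chr1:57641940-57645675. Over the 834 tested proviruses with both genome sequence and an annotated LTR at the 5′ end, the first 300 bases held a median of 13 CG (range 5 to 23), with 14 in IAPLTR2_Mm and 12 in both IAPLTR2a and IAPLTR2b.

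The primers that the study used as IAPEz assays for ChIP and for (hydroxy)methylated DNA were matched to the IAPEz integrants with IAPLTR2 or IAPLTR1. Other repeats were not searched, so that which copies such an assay reads was not tested.
ChIP and (h)MeDIP forward: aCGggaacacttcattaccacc
ChIP and (h)MeDIP reverse: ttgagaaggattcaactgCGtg
glucMS-qPCR forward: ctCGctCGctgcctaaag
glucMS-qPCR reverse: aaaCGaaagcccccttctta
With no mismatch allowed, the ChIP and (h)MeDIP forward primer matched 213 of the 943 proviruses with genome sequence (22.6%) and the reverse primer 496 (52.6%), against 3 and 47 of 1536 IAPEz integrants with IAPLTR1. Both were present in 189 IAPLTR2 and in 2 IAPLTR1 integrants. The glucMS-qPCR primers matched 48 and 29 IAPLTR2 proviruses, 11 of them with both, and no IAPLTR1 integrant.

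The libraries held 18108431 to 29373696 reads in genes and 898152 to 1803819 in TEs, and levels are given as RPM, reads per 1000000 gene reads after TMM scaling. Trim28, which encodes KAP1, went from 1752 ± 207 to 165 ± 21.9 RPM in WT (SD, n = 3; log2 change -3.41), from 1868 ± 197 to 427 ± 91.5 in DNMT TKO (n = 3; -2.13) and from 1835 ± 89.8 to 166 ± 3.84 in TET TKO (n = 2; -3.47). Trim28 thus stayed higher in Kap1-depleted DNMT TKO than in Kap1-depleted WT cells (log2 1.37, edgeR adjusted p = 5.4e-06), and its part in the genotype comparisons below was not tested. With the empty hairpin, Dnmt1, Dnmt3a and Dnmt3b were lower in DNMT TKO than in WT (log2 -1.65, -3.04 and -2.64), as were Tet1 and Tet2 in TET TKO (-1.49 and -2.16), whereas Tet3 RNA was -0.03 from WT there and did not pass. All 7 pluripotency genes listed were detected in every library. Their sum went from 3647-3858 to 2200-2357 RPM on Kap1 depletion in WT, from 3826-3888 to 2479-2817 in DNMT TKO and from 3636-3797 to 2733-2782 in TET TKO. Of the 7, 3 (Tbx3, Sox2 and Klf4) fell in WT, beside 6.54% of all genes. In DNMT TKO 1 (Zfp42) fell, beside 2.41%, and in TET TKO 1 (Tbx3), beside 4.46%. Markers of endoderm, trophoblast, mesoderm and fibroblasts summed to at most 25.7 RPM in any library. Of the 4 mesoderm markers 3 were higher in DNMT TKO than in WT with the empty hairpin, with sums of 16.8-20.0 against 4.14-6.05 RPM. In the same comparison 2 of 5 trophoblast markers were lower and 1 higher (sums of 8.36-15.4 against 20.3-25.7 RPM). Of 5 endoderm markers 1 was lower (4.01-6.48 against 8.05-9.70 RPM). The share of all genes called in this comparison is not given here. After Kap1 depletion the 5 fibroblast markers summed to 10.8-11.5 RPM in DNMT TKO against 2.94-5.41 in WT. The part of cells with any of these markers in the proviral RNA was not tested. Markers of 2-cell-like cells, a rare state in such cultures, rose together: all 5 measured (of 7 listed) passed in each genotype, with sums going from 12.2-22.9 to 185-206 in WT, from 5.94-17.5 to 56.0-131 in DNMT TKO and from 8.19-9.41 to 554-572 in TET TKO. The part of these cells in the proviral RNA was not tested, and in bulk RNA more cells in which a provirus is active cannot be told apart from more RNA per cell.

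Kap1 depletion raised the RNA of the IAPLTR2 branch in all 3 genotypes, and most in DNMT TKO cells. Summed over the 1212 integrants, the 3 WT shEmpty libraries held 18.3, 18.5 and 22.6 RPM and the 3 WT shKap1 libraries 927, 1170 and 1146. In DNMT TKO the sums were 23.0, 21.5 and 38.4 with shEmpty and 2647, 1977 and 1874 with shKap1. In TET TKO they were 25.6 and 23.8, and 1483 and 1481. No Kap1-depleted library overlapped with a control library, and the ratios of the group means were 54.6 in WT, 78.4 in DNMT TKO and 59.9 in TET TKO (log2 5.77, 6.29 and 5.90). Among the Kap1-depleted libraries, those of both knockouts lay above those of WT, by 2.00-fold in DNMT TKO and 1.37-fold in TET TKO. With the empty hairpin the DNMT TKO values, 1.40 times WT on average, overlapped with WT, and the TET TKO values, 1.25 times WT, did not. As a share of all TE reads, the branch went from 0.0355-0.0447% to 1.38-1.64% in WT, and reached 2.80-3.50% in DNMT TKO and 1.78-1.80% in TET TKO. The branch had 329, 520 and 639 reads in the WT shEmpty libraries and 17685, 27020 and 21491 in the WT shKap1 libraries. At these read numbers, 161 to 225 of the 1212 integrants had a read in a WT shEmpty library and 898 to 964 in a WT shKap1 library. In DNMT TKO these numbers were 242 to 374 and 1093 to 1123, and in TET TKO 234 to 292 and 1030 to 1039. The 10 highest integrants of a library took 36.5% to 41.5% of the branch's reads in WT shEmpty cells and 19.6% to 22.7% after Kap1 depletion. Both the number of copies with a read and this share depend on the number of reads. Whether more copies were active was therefore not tested.

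The branch did not change in step with its sister branch, the IAPEz integrants with IAPLTR1 (1657 named, 1551 tested). IAPLTR1 integrants summed to 75.9, 85.0 and 89.9 RPM in WT shEmpty cells and to 3640, 4488 and 4383 in WT shKap1 cells. The Kap1-depleted knockouts gave 6850, 5366 and 4683 (DNMT TKO) and 2741 and 2715 (TET TKO). Against WT, then, the IAPLTR1 sum after Kap1 depletion was 1.35-fold in DNMT TKO and 0.654-fold in TET TKO, where the IAPLTR2 sum was 1.37-fold. The ratio of the IAPLTR2 to the IAPLTR1 sum, which does not depend on the scaling of the libraries, was 0.241, 0.218 and 0.251 in WT shEmpty and 0.255, 0.261 and 0.261 in WT shKap1 libraries. It was 0.386, 0.417 and 0.400, and 0.386, 0.368 and 0.400, in the corresponding DNMT TKO libraries. In TET TKO it was 0.453 and 0.422 with shEmpty and 0.541 and 0.545 with shKap1. Every knockout library thus had a higher ratio than every WT library, with either hairpin, while within WT and DNMT TKO the ratio moved little on Kap1 depletion. These are descriptions of sums and carry no test.

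**Figure D1:**
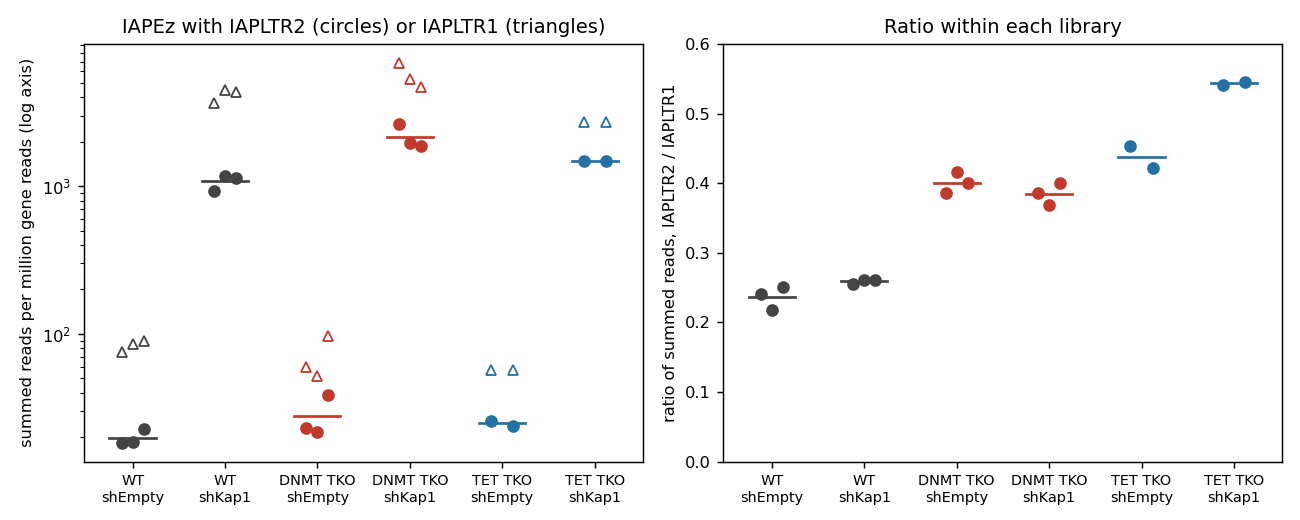
Left, RPM (log axis) summed over all IAPEz integrants with IAPLTR2 (circles) and with IAPLTR1 (triangles), 1 point per library for each genotype and hairpin. Right, the ratio of the IAPLTR2 to the IAPLTR1 sum in the same libraries: all WT values lie between 0.218 and 0.261, all DNMT TKO values between 0.368 and 0.417 and all TET TKO values between 0.422 and 0.545.

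Of the 968 proviruses tested, edgeR's quasi-likelihood test with Benjamini-Hochberg adjustment over all TEs called 695 higher on Kap1 depletion in WT (71.8%, against 12.1% of all TEs tested), 926 in DNMT TKO (95.7%, against 15.0%) and 769 in TET TKO (79.4%, against 14.7%), where a call stands for 2-fold or more at an adjusted p under 0.05. Of the IAPLTR1 integrants, 90.4%, 95.7% and 84.8% were called higher. None of the 968 was called lower in any genotype by edgeR, limma-voom or DESeq2, beside 2.05%, 0.944% and 0.971% of all TEs by edgeR, and at an unadjusted p below 0.05 edgeR had 0, 0 and 0 proviruses lower in WT, DNMT TKO and TET TKO. The median fitted change was log2 4.85 in WT, 5.92 in DNMT TKO and 5.45 in TET TKO, beside 0.23, 0.27 and 0.33 over all TEs. Since 609, 441 and 589 of the proviruses had no read at all in the shEmpty libraries of WT, DNMT TKO and TET TKO, these medians rest on fitted values. With each such provirus set to its lower bound, a control level of 3 reads over the group, the medians were 3.46, 4.66 and 3.62. They leave out proviruses with at most 3 reads in both groups, 136 in WT, 9 in DNMT TKO and 92 in TET TKO. The medians of the 3 genotypes therefore rest on different sets of proviruses. Later medians with lower bounds leave such proviruses out as well. In all 3 genotypes 624 proviruses were called higher (64.5%, against 6.43% of all TEs), in DNMT TKO and TET TKO but not WT 128 (13.2%, against 2.3%), in DNMT TKO alone 115 (11.9%, against 5.02%) and in WT and DNMT TKO 59 (6.10%, against 1.29%). A further 11 were called in TET TKO alone (1.14%, against 3.59%), 6 in WT alone and 6 in WT and TET TKO (0.620% each, against 2.03% and 2.37%), and 19 in none (1.96%, against 77.0%). A call in one genotype and not in another is no test of a difference, which is given further on.

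After Kap1 depletion 756 of the 968 proviruses had their highest mean level in DNMT TKO, 167 in TET TKO and 45 in WT. The median provirus stood at 0.262 RPM in WT, 0.799 in DNMT TKO and 0.456 in TET TKO. Proviruses could reach the read minimum through DNMT TKO shKap1 libraries alone, which held 42036 to 55105 reads of the branch, against 17685 to 27020 in WT shKap1. These counts and medians share that selection, and the share of all TEs highest in each genotype is not given here. In the direct comparison of the Kap1-depleted cells, 402 proviruses were higher in DNMT TKO than in WT (41.5%, against 7.1% of all TEs) and 22 lower (against 6.29%), with a median difference of log2 1.25 (all TEs -0.16). Against the same WT libraries, 166 were higher in TET TKO (17.1%, against 5.71%) and 17 lower (against 1.91%), with a median difference of log2 0.52 (all TEs -0.0018). By DESeq2 these counts were 206 and 14 for DNMT TKO (against 3.0% and 2.6% of all TEs) and 86 and 6 for TET TKO (against 2.14% and 0.683%). Of the 1551 IAPLTR1 integrants, 516 were higher (33.3%) and 85 lower in DNMT TKO, with a median of log2 0.81, and 106 were higher and 235 lower in TET TKO, with a median of -0.30.

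**Figure D2:**
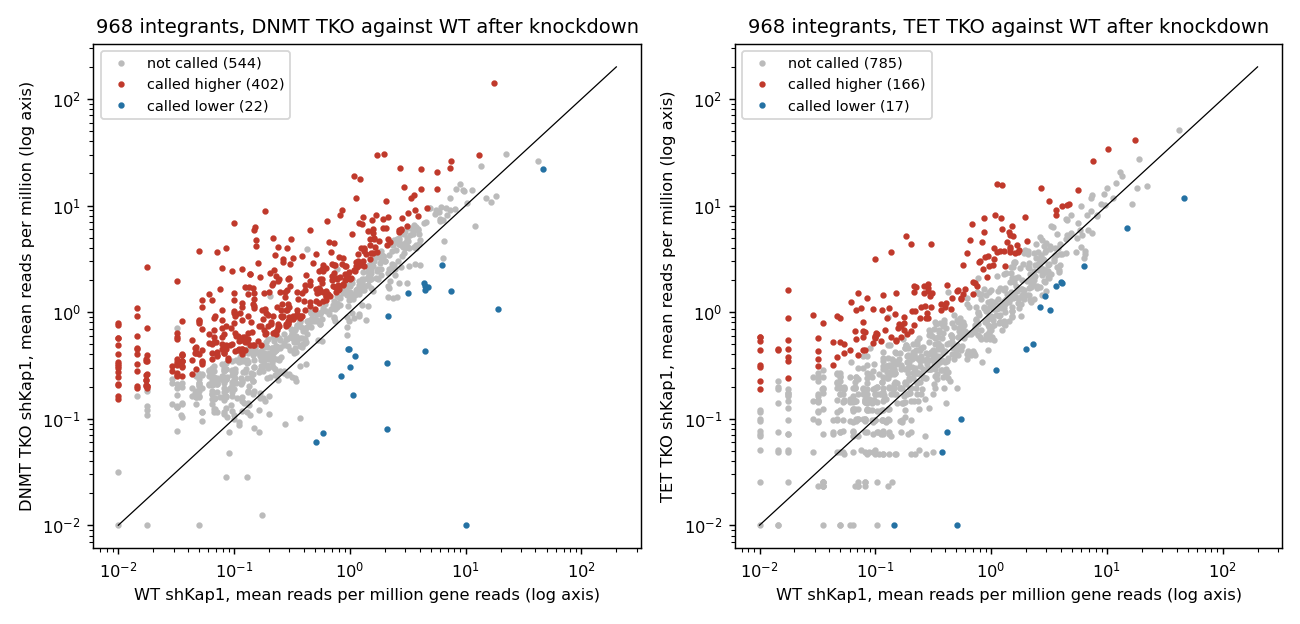
Mean level of each tested provirus after Kap1 depletion in WT (horizontal axis) against DNMT TKO (left) and TET TKO (right), in RPM on log axes, with the diagonal marking equal levels and values under 0.01, including 0, drawn at 0.01. The cloud lies mostly above the diagonal in DNMT TKO and closer to it in TET TKO, where the median difference was log2 0.52.

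The 5 proviruses with the most reads over all libraries show how far the genotypes can part. The IAPLTR2b provirus chr4:60045742-60052220, more than 10 kb from any annotated gene, had 1, 1 and 1 reads in WT shEmpty and 326, 427 and 314 in WT shKap1 libraries, against 12, 10 and 24, and 3226, 3253 and 3142, in DNMT TKO. In TET TKO it had 7 and 2, then 859 and 821 reads. It had the most reads of any provirus in Kap1-depleted DNMT TKO cells, 7.96 times its WT shKap1 level there (counting interval 7.47 to 8.48, log2 3.02, SE 0.15), and 2.34 times in TET TKO (2.16 to 2.52).
The IAPLTR2_Mm provirus chr5:110363048-110366378 went the other way. It lies antisense in an intron of Gm15446, a KRAB zinc finger gene, and had 2, 2 and 0 reads in WT shEmpty and 777, 1139 and 922 in WT shKap1 libraries. In DNMT TKO it had 1, 3 and 6, then 574, 397 and 519 reads, and in TET TKO 4 and 5, then 259 and 226. The Kap1-depleted groups did not overlap in RPM, with WT highest (40.7, 49.3 and 49.1), DNMT TKO next (27.6, 18.7 and 19.2) and TET TKO lowest (12.0 and 11.6).
The IAPLTR2b provirus chr16:98256742-98260405, with an LTR at one end, was the one of the 5 with more than 3 reads in any WT shEmpty library. It had 52, 89 and 89 reads in WT shEmpty libraries, 17, 56 and 38 in DNMT TKO and 90 and 119 in TET TKO. After Kap1 depletion it had 929, 913 and 727, 702, 454 and 654, and 1076 and 1020 reads, and rose by log2 3.78, 4.18 and 3.74 (SE 0.17, 0.18 and 0.20). The rise in DNMT TKO differed from that in WT by 0.40 (SE 0.23) and the rise in TET TKO by -0.04 (SE 0.24), and neither difference passed.
The remaining 2 were chr17:27401835-27406886 (IAPLTR2_Mm) and chr1:181824040-181831299 (IAPLTR2a), with 4087 and 3698 reads in all. Both had at most 3 reads in any WT shEmpty library and at least 198 in every WT shKap1 library.

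The largest rises by the fitted log2 change came mostly from proviruses without reads in control cells. Their folds are given as lower bounds, which do not rank them, and some measured ratios elsewhere were higher than these bounds. In WT, chr13:118859325-118863162 had no read in the 3 shEmpty libraries and 99, 289 and 133 in the shKap1 libraries, at least 212-fold higher. In the same libraries chr5:110154176-110159255 went from no read to 132, 158 and 166, at least 186-fold. The third, chr17:27401835-27406886, had a single WT shEmpty read and rose by a measured ratio of 1689 (counting interval 303 to 66778). The provirus chr5:110154176-110159255 had 37, 24 and 50 reads in Kap1-depleted DNMT TKO and 581 and 490 in Kap1-depleted TET TKO cells. Its level was thus 0.215 times WT in DNMT TKO (counting interval 0.173 to 0.265) and 3.48 times WT in TET TKO (3.12 to 3.90), both past the test. In DNMT TKO the largest fitted rises were at chr10:121740585-121745660, chr13:59222847-59226771 and chr2:144453633-144458089, each without a read in the 3 shEmpty libraries, and they were at least 135-fold, 111-fold and 104-fold. In the same libraries chr13:118859325-118863162, with 2 shEmpty reads, had a ratio of 534 (counting interval 147 to 4413). Of these, chr13:59222847-59226771 lies antisense in an intron of Ntrk2, a neurotrophin receptor gene, and had 101, 91 and 115 reads in the DNMT TKO shKap1 libraries against 8, 22 and 15 in WT and 13 and 18 in TET TKO. In TET TKO the largest fitted rises were at chr1:59401992-59407023, antisense in an intron of Cdk15, at least 214-fold, at chr1:13540540-13547820, within 10 kb of Tram1, at least 203-fold, and at chr5:152273171-152278286, at least 187-fold. The last of these had 248 and 171 reads in TET TKO shKap1 libraries, 54, 115 and 106 in WT and 33, 41 and 37 in DNMT TKO.
The longest provirus tested, chr2:123339364-123351013 (11650 bp), had no read in any WT library, 19, 18 and 16 reads in the Kap1-depleted DNMT TKO libraries and at most 2 in any other.

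With the empty hairpin, where KAP1 was present, few proviruses were called different between the knockout lines and WT. In DNMT TKO 18 were called higher than in WT (1.86%, against 3.48% of all TEs) and 11 lower (1.14%, against 6.45%). In TET TKO 7 were higher (0.723%, against 1.74%) and 4 lower (0.413%, against 2.33%). Levels were low, since 609 proviruses had no read in the 3 WT shEmpty libraries, so that small differences were not detectable at this depth. Of the 968, 793 had at most 3 reads in both groups for DNMT TKO against WT, and 859 for TET TKO against WT. Most proviruses thus had too few reads for a call, and the low shares do not show that they were alike. In all, 29 and 11 were called. DESeq2 called 7 higher and 5 lower in DNMT TKO (against 1.74% and 3.07% of all TEs) and 2 higher and 2 lower in TET TKO (against 0.789% and 0.833%). For DNMT TKO the count fell to 17 without WT shEmpty replicate 2 and to 14 without WT shEmpty replicate 3 or DNMT TKO shEmpty replicate 3. For TET TKO it was 6 without WT shEmpty replicate 2 or 3 or TET TKO shEmpty replicate 2, and 7 without replicate 1 of either group.
The IAPLTR2_Mm provirus chr5:136680091-136684461, 5258 bp from Prkrip1, was higher in both knockouts. It had 0, 0 and 2 reads in WT shEmpty, 11, 19 and 12 in DNMT TKO and 10 and 17 in TET TKO libraries, without overlap between WT and either knockout. These were 20.9 times WT (counting interval 5.45 to 179) and 18.3 times WT (4.59 to 158).
In TET TKO, chr13:66098066-66102080, 6591 bp from Gm6910, had 20 and 19 reads, against 1, 0 and 0 in WT and 0, 1 and 4 in DNMT TKO. After Kap1 depletion the same provirus had 321 and 312 reads in TET TKO, 39, 21 and 15 in WT and 94, 36 and 67 in DNMT TKO, that is, 12.5 times WT in TET TKO (counting interval 9.84 to 16.1).
Calls in the lower direction included a pair of IAPLTR2b fragments that lie next to each other on chromosome 12. The shorter, chr12:19714552-19715616, had 7, 21 and 18 reads in WT shEmpty, 155, 247 and 210 in WT shKap1, 28 and 22 in TET TKO shEmpty and 296 and 300 in TET TKO shKap1 libraries. In DNMT TKO it had 1 read in the 3 shEmpty and none in the 3 shKap1 libraries, at least 231-fold lower than WT after Kap1 depletion. It was the only provirus with at most 3 reads in all libraries of one genotype and at least 50 in the shKap1 libraries of both others. Its neighbour, chr12:19715914-19718152, had 326, 470 and 373 reads in WT shKap1, 562 and 549 in TET TKO shKap1 and 39, 13 and 20 in DNMT TKO shKap1 libraries. Whether the DNMT TKO line carries the shorter copy was not tested.
The other calls named, again among the 3 largest changes in a direction with at least 200 reads, were at chr15:34155372-34159213 and chr6:133351265-133357666 (higher in DNMT TKO), chr10:62071638-62076077 (higher in TET TKO), chr12:25030538-25033262 (lower in DNMT TKO), and chr10:55435353-55440642, chr2:118380503-118384111 and chr5:30549586-30556697 (lower in TET TKO). Each rested on at most 36 reads in any WT shEmpty library, and 5 of these 7 calls were lost when certain single libraries were left out. These were chr6:133351265-133357666 (any WT shEmpty library or DNMT TKO shEmpty replicate 1), chr12:25030538-25033262 (WT shEmpty replicate 2 or 3 or any DNMT TKO shEmpty library), chr10:62071638-62076077 (WT shEmpty replicate 1 or 3 or either TET TKO shEmpty library), chr2:118380503-118384111 (WT shEmpty replicate 2 or 3 or TET TKO shEmpty replicate 1) and chr10:55435353-55440642 (WT shEmpty replicate 3).

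Whether the response to Kap1 depletion itself differed between genotypes was read from the interaction term of the edgeR fit, and the number of calls depended on the test. Of the 968, 13 rose more in DNMT TKO than in WT (1.34%, against 1.33% of all TEs) and 3 less (0.310%, against 0.473%). For TET TKO, 2 rose more than in WT (0.207%, against 0.831%) and 5 less (0.517%, against 0.242%). All but the last of these edgeR shares were near or below the background. Limma-voom called 95 higher and 7 lower for DNMT TKO (against 1.92% and 0.956% of all TEs), and 29 and 3 for TET TKO (against 1.14% and 0.265%), with 14 and 4 calls shared with edgeR, while DESeq2 called 11 and 2 for DNMT TKO (against 0.568% and 0.266% of all TEs) and 2 and 1 for TET TKO (against 0.34% and 0.132%). The median interaction was log2 0.92 for DNMT TKO and 0.52 for TET TKO (all TEs 0.10 and 0.14). For a provirus without control reads in both genotypes, the interaction reduces to the level difference after Kap1 depletion. The medians of that difference were log2 1.25 and 0.52. All these medians share the selection through the Kap1-depleted libraries and cannot tell whether the response itself differed. The 16 calls for DNMT TKO became 8 without WT shEmpty replicate 3, and the 7 calls for TET TKO became 4 without WT shEmpty replicate 1 or 3 or TET TKO shEmpty replicate 1, and 1 without TET TKO shEmpty replicate 2. Where a group had no read, the size of an interaction depends on the prior count of the fit.
The provirus chr1:57641940-57645675 (IAPLTR2b, 3736 bp, more than 10 kb from a gene) was not called in WT. It had 6, 3 and 2 reads in WT shEmpty and 2, 3 and 4 in WT shKap1 libraries, against 6, 10 and 9, and 123, 134 and 146, in DNMT TKO. In TET TKO it had 3 and 1, then 22 and 39. The WT groups overlapped, while in both knockouts every Kap1-depleted library was above every control library, and the interaction was log2 4.14 for DNMT TKO (SE 0.71, edgeR adjusted p = 1.3e-05) and 4.30 for TET TKO (SE 0.85, edgeR adjusted p = 5.4e-04). The second call was lost when WT shEmpty replicate 1 was left out (log2 3.57).
Its closest relative in sequence among the 6 shown, chr11:104720930-104723643, had 0, 1 and 1 reads in WT shEmpty and 0, 1 and 4 in WT shKap1 libraries, none in DNMT TKO cells with the empty hairpin, 105, 75 and 90 after Kap1 depletion there and 6 and 3 in Kap1-depleted TET TKO cells. It was thus at least 97.2-fold higher on Kap1 depletion in DNMT TKO, and at 47.6 times WT there (counting interval 20.2 to 148).
The provirus chr8:79824682-79828583, antisense in an intron of Arhgap10, had 1, 0 and 1 reads in WT shEmpty and 2, 2 and 3 in WT shKap1 libraries. Without a read in the shEmpty libraries of either knockout, it reached 64, 60 and 47 reads in DNMT TKO shKap1 and 35 and 25 in TET TKO shKap1 libraries. The provirus chr10:17958917-17961581 (IAPLTR2a) had at most 5 reads in any WT library, 70, 66 and 60 in DNMT TKO shKap1 and 16 and 16 in TET TKO shKap1 libraries (interaction for DNMT TKO log2 4.64, SE 1.03, edgeR adjusted p = 1.5e-03). At chr10:55435353-55440642, the interaction for DNMT TKO was log2 3.35 (SE 0.71, edgeR adjusted p = 3.9e-04), and here WT cells also responded, from 3, 1 and 19 reads with the empty hairpin to 41, 53 and 29 after Kap1 depletion, against 1, 1 and 1, and 56, 92 and 55, in DNMT TKO. The 4 proviruses before it were, by contrast, nearly silent in Kap1-depleted WT cells and transcribed in Kap1-depleted DNMT TKO cells. The calls at chr11:104720930-104723643 and chr8:79824682-79828583 (edgeR adjusted p = 0.011 and 0.033) rested on DNMT TKO control libraries without reads. The first was lost without WT shEmpty replicate 2 or 3, the second without WT shEmpty replicate 1 or 3 or any DNMT TKO shEmpty library.
At chr5:30549586-30556697, 1857 bp from Gm5299, the genotypes differed in opposite directions. It had 17, 25 and 36 reads in WT shEmpty and 321, 504 and 301 in WT shKap1, 33, 68 and 72 and then 286, 279 and 264 in DNMT TKO, and 8 and 4 and then 369 and 235 in TET TKO libraries. The control levels were ordered DNMT TKO above WT above TET TKO without overlap, whereas the Kap1-depleted levels of WT and TET TKO overlapped (the higher TET TKO library had 17.1 RPM, a WT library 16.8). Its interaction was log2 -1.71 for DNMT TKO (SE 0.27, edgeR adjusted p = 2.3e-07) and 1.91 for TET TKO (SE 0.38, edgeR adjusted p = 3.2e-04), and the second was lost without TET TKO shEmpty replicate 2 (log2 1.54).
Smaller rises than in WT were also called at chr15:34155372-34159213 and chr5:136680091-136684461 in DNMT TKO, and at chr5:136680091-136684461, chr10:62071638-62076077 and chr5:110363048-110366378 in TET TKO. The calls at chr5:136680091-136684461 were lost without WT shEmpty replicate 2 or shEmpty replicate 2 of the knockout concerned, and for DNMT TKO also without WT shEmpty replicate 1 or DNMT TKO shKap1 replicate 3. That at chr10:62071638-62076077 was lost without WT shEmpty replicate 3 or either TET TKO shEmpty library. The last provirus, in the Gm15446 intron, rose by log2 9.61 in WT (SE 0.28), 7.30 in DNMT TKO (SE 0.25) and 6.13 in TET TKO (SE 0.29), with an interaction of -3.48 for TET TKO (SE 0.56, edgeR adjusted p = 3.8e-03) that was lost without WT shEmpty replicate 3 or TET TKO shEmpty replicate 2.

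**Figure D3:**
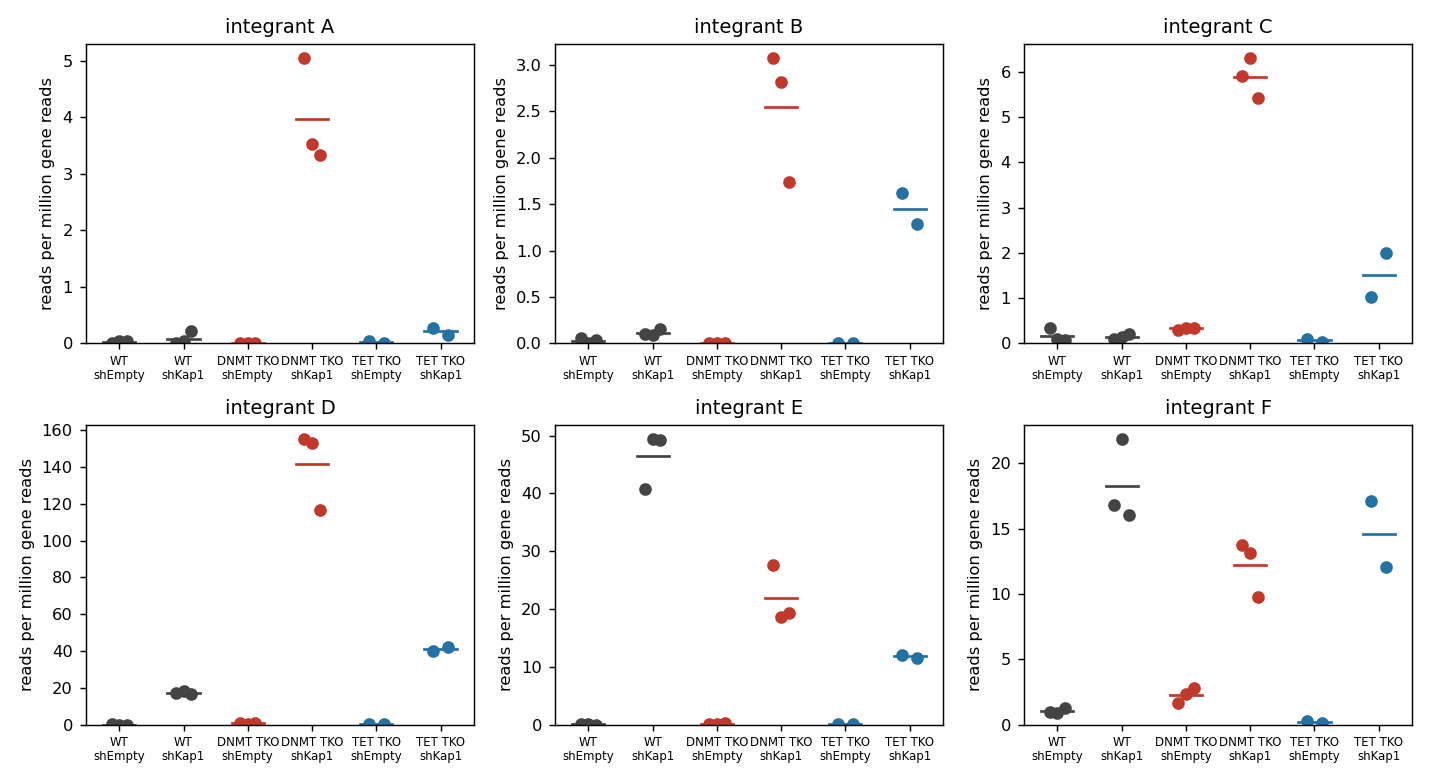
Level, in RPM, in every library for 6 proviruses, A to F, which are chr11:104720930-104723643, chr8:79824682-79828583, chr1:57641940-57645675, chr4:60045742-60052220, chr5:110363048-110366378 and chr5:30549586-30556697. Each point is 1 library and each line a group mean. Proviruses A to C stayed near 0 in Kap1-depleted WT cells and rose in Kap1-depleted DNMT TKO cells, D was highest in DNMT TKO, E was highest in WT, and in F, DNMT TKO was above WT with the empty hairpin and below it after Kap1 depletion.

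Longer proviruses rose more. The tested proviruses had a median length of 3329 bp (490 to 11650 bp), and 9 were under 1 kb, 414 were of 1 to 3 kb, 459 of 3 to 6 kb and 86 of 6 kb or more. In WT the median change on Kap1 depletion was log2 4.03 at 1 to 3 kb, 5.55 at 3 to 6 kb and 6.18 at 6 kb or more, and 54.1%, 83.4% and 98.8% of each class were called. In TET TKO the medians were 4.84, 5.71 and 6.52, and in DNMT TKO 5.57, 6.24 and 6.37, a narrower range. The shorter classes had fewer reads, with a median over all libraries of 48, 174 and 446 reads per provirus. With proviruses lacking control reads set to their lower bound, the WT medians were 2.16, 4.27 and 5.67. Summed reads of the tested proviruses, which do not depend on fitted values but do on the read minimum, rose 27.1-fold at 1 to 3 kb, 65.1-fold at 3 to 6 kb and 67.3-fold at 6 kb or more in WT. In DNMT TKO these ratios were 50.6, 90.3 and 82.9, and in TET TKO 36.2, 66.1 and 105. Among proviruses with at least 100 reads, the difference between the longest and the 1 to 3 kb class shrank from log2 2.14 to 1.07 in WT and from 1.68 to 0.41 in TET TKO, and in DNMT TKO it went from 0.81 to -0.0042. Over the 968 proviruses of the same libraries, Spearman's rank correlation with length was 0.472 for the WT change and 0.567 for the total of reads.
In the fitted medians, the genotype differences after Kap1 depletion ran the other way. Of the named integrants, 414 of 594 at 1 to 3 kb reached the read minimum, against 86 of 89 at 6 kb or more. Short copies could reach it through the Kap1-depleted knockout libraries, and the part of this selection in the order was not tested. The median excess of DNMT TKO over WT was log2 1.57 at 1 to 3 kb, 1.08 at 3 to 6 kb and 0.88 at 6 kb or more, and that of TET TKO was 0.89, 0.34 and -0.01. In summed reads of the tested proviruses, TET TKO was 1.96, 1.29 and 1.22 times WT in these classes. The order of the TET TKO sums was therefore the same as that of the medians, while for DNMT TKO the sums, at 2.13, 1.82 and 2.44 times WT, did not follow the medians. In the longest class 1 provirus, chr4:60045742-60052220, had 9621 reads in the DNMT TKO shKap1 libraries together and 1067 in those of WT.

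**Figure D4:**
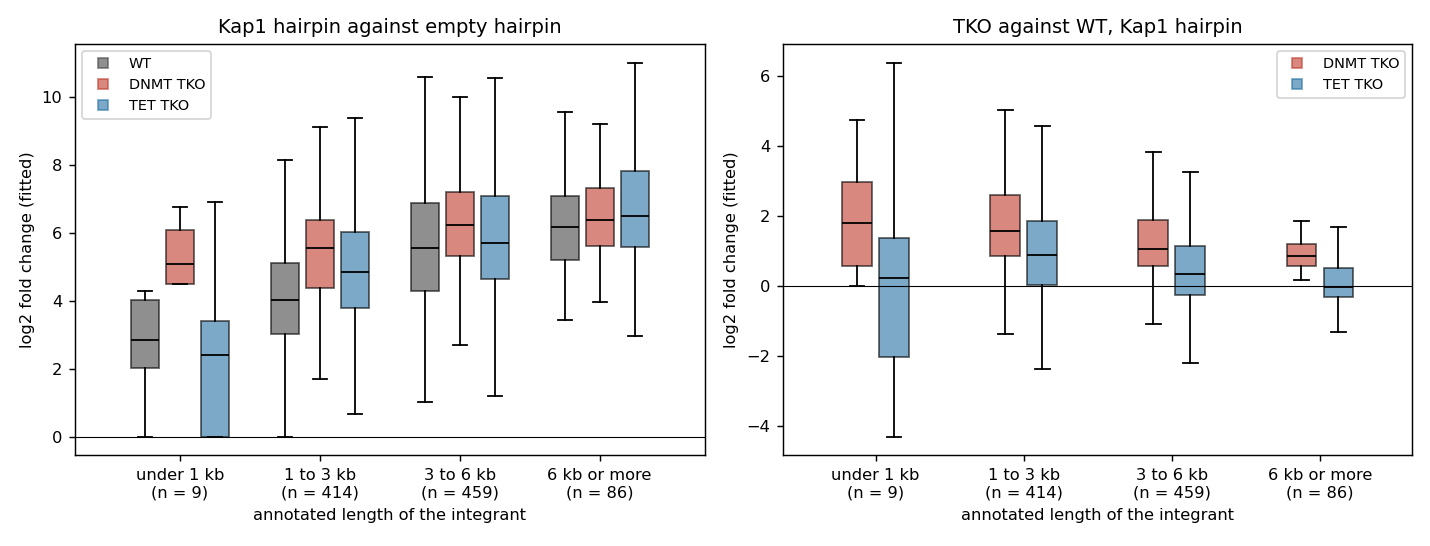
Box plots of log2 changes by length class (boxes give quartiles, whiskers reach 1.5 times the interquartile range, outliers are not drawn) for Kap1 depletion in each genotype and for DNMT TKO and TET TKO against WT after Kap1 depletion. Medians rise with length on Kap1 depletion, from log2 4.03 to 6.18 between 1 to 3 kb and 6 kb or more in WT, and fall with length in TET TKO against WT, from 0.89 to -0.01.

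By LTR subtype, 518 proviruses carried IAPLTR2_Mm, 196 IAPLTR2a, 219 IAPLTR2b and 35 a mixture. Summed reads of the tested IAPLTR2b proviruses rose least in WT, 27.6-fold, against 89.9-fold for IAPLTR2_Mm and 69.0-fold for IAPLTR2a. The fitted medians stood in the same order (log2 4.49, 5.17 and 4.68), whereas with proviruses lacking control reads set to their lower bound the medians were 3.61, 3.75 and 2.84, with IAPLTR2a lowest. In WT shEmpty libraries IAPLTR2b summed to 8.11, 9.21 and 12.6 RPM and the more numerous IAPLTR2_Mm to 7.05, 6.30 and 6.58. A single provirus, chr16:98256742-98260405, carried much of this: without it IAPLTR2b summed to 5.22, 6.05 and 9.45 RPM in these libraries, below IAPLTR2_Mm in 2 of the 3, and rose 33.7-fold in WT, 67.7-fold in DNMT TKO and 41.3-fold in TET TKO. With all proviruses the folds in DNMT TKO were 60.7, 88.4 and 85.7 for IAPLTR2b, IAPLTR2_Mm and IAPLTR2a, and in TET TKO 31.4, 79.6 and 89.6. The excess of TET TKO over WT after Kap1 depletion had a median of log2 0.84 in IAPLTR2a, 0.44 in IAPLTR2_Mm and 0.33 in IAPLTR2b. The subtypes also differed in length, with a median of 2808 bp in IAPLTR2a against 3383 bp in IAPLTR2b, and 114 of the 196 IAPLTR2a proviruses were of 1 to 3 kb.

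Proviruses in genes mostly lay against the gene's strand. Introns held 115 antisense and 29 sense proviruses, 8 overlapped an exon, 156 lay within 10 kb of a gene, 635 farther away and 25 on sequence without annotation. On Kap1 depletion in WT the median change was log2 5.34 for intronic antisense and 4.42 for intronic sense proviruses, 4.91 within 10 kb of a gene and 4.84 farther away. With proviruses lacking control reads set to their lower bound, these medians were 4.06, 4.32, 3.99 and 3.10, so that the order of antisense and sense intronic proviruses depended on the measure. Sense intronic proviruses can also hold reads of their gene. In DNMT TKO against WT after Kap1 depletion, 54.8% of the antisense intronic proviruses were higher (median log2 1.45), against 39.7% of those far from genes (1.31). In TET TKO the sense intronic proviruses had a median of -0.02 and the antisense ones of 0.55. The antisense intronic proviruses were also longer, with a median of 3888 against 3059 bp far from genes, and among proviruses with at least 100 reads their lead over the far ones on Kap1 depletion was log2 0.091 in WT and -0.0799 in TET TKO, against 0.28 in DNMT TKO.
Of the 8 proviruses on exons, 8 were called higher on Kap1 depletion in WT, 7 in DNMT TKO and 5 in TET TKO. In 4 of them the exon (of Gm17672, Gm10845, Gm17462 or Gm2783) was on the same strand, so that reads of gene and provirus cannot be told apart.

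Nearly all of these proviruses were bound by KAP1 in WT cells. KAP1 regions overlapped 953 of the 968 (98.5%, exact binomial 95% interval 97.5 to 99.1%), against 8.15% of all TEs tested and all 1551 IAPLTR1 integrants. KAP1-dependent H3K9me3 regions overlapped 859 (88.7%, 86.6 to 90.7%), against 7.44% of all TEs and 96.7% of IAPLTR1 integrants, and KAP1-independent H3K9me3 regions 44 (4.55%, against 0.347%). H3K4me3 regions overlapped 4 (0.413%, 0.113 to 1.05%, against 7.19% of all TEs) and H3K27me3 regions none, which allows a share of up to 0.380% (against 0.864%). The intervals cover counting error only. The 109 proviruses without a KAP1-dependent H3K9me3 region rose by a median of log2 4.83 on Kap1 depletion in WT, with 84 called, and the 859 with one by 4.85, with 611 called. Of the proviruses, 261 had a single KAP1 region, 371 had 2, 229 had 3 and 74 had 4. The 109 include all 25 proviruses on sequence without annotation, 80% of which had a KAP1 region.
The centres of the KAP1 regions were placed along each copy as a share of its length, and differences between the length classes were not tested. On proviruses of 1 to 3 kb with an LTR at both ends (275 proviruses, 464 regions), 31.9% of the region centres fell between 20 and 40% of the length from the 5′ end and 31.5% in the last 20%. On those of 3 to 6 kb (403 proviruses, 993 regions) 23.4% fell in the first 20% and 32.8% in the last 20%. On those of 6 kb or more (77 proviruses, 287 regions) the shares were 18.8% in the first 20%, 24.4% between 60 and 80% and 26.5% in the last 20%. The regions had a median width of 1400 bp in the shortest of these classes. In base pairs from the 5′ end, over all proviruses with an LTR there, the lower quartile of the centres was 729 bp at 1 to 3 kb and 909 bp at 3 to 6 kb.

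**Figure D5:**
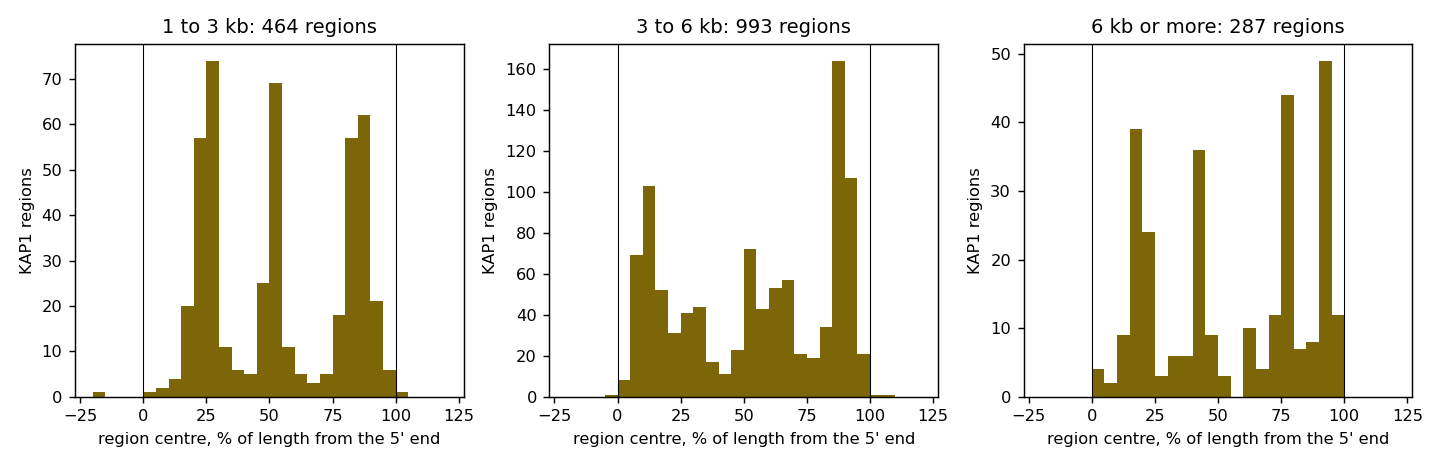
Number of KAP1 regions, in bins of the position of their centre, on proviruses with LTRs at both ends, as percent of the length from the 5′ end, in 3 length classes (275, 403 and 77 proviruses). In the shortest class 5.82% of the centres lay in the first 20% of the length and 31.9% between 20 and 40%, and 31.5%, 32.8% and 26.5% of them lay in the last 20% of the length in the shortest, middle and longest class.

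Hydroxymethylation of the DNA was compared in WT cells, with 1 library per hairpin and 1 input each, so that it carries no test. Over the 2001 KAP1 regions on these proviruses with at least 10 input reads (of 2073), the median log2 ratio of 5hmC over input was -0.27 with shEmpty and 0.70 with shKap1. The difference had a median of 0.90 (quartiles 0.43 and 1.38) and was above 0 in 89.3% of the regions, against 88.6% of KAP1 regions on IAPLTR1 integrants, 73.3% of all other KAP1 regions and 71.5% of H3K4me3 regions. The median difference was 0.94 at KAP1 regions on IAPLTR1 integrants, 0.53 at all other KAP1 regions and 0.39 at H3K4me3 regions. Scaled so that H3K4me3 reads were equal, the median difference was 0.51 on these proviruses, 0.55 on IAPLTR1 integrants and 0.14 at other KAP1 regions, and it was above 0 in 76.3%, 77.1% and 56.7% of the regions, beside 50.2% of H3K4me3 regions. Of the reads over all region sets, the KAP1 regions on these proviruses took 1.08% in the shEmpty and 2.03% in the shKap1 5hmC library, beside 1.19% and 1.11% in the input libraries.

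Of the 338 genes next to these proviruses, with the provirus in an exon or intron or within 10 kb of the start, 183 were expressed enough to be tested. On Kap1 depletion 45 rose in WT (24.6%, against 10.8% of all genes), 40 in DNMT TKO (21.9%, against 10.1%) and 39 in TET TKO (21.3%, against 8.05%), while 8, 3 and 3 fell (against 6.54%, 2.41% and 4.46%). With a replicate block, 45, 40 and 40 rose (against 10.9%, 10.2% and 8.28%) and 8, 2 and 3 fell (against 6.6%, 2.52% and 4.72%). Of the 89 tested genes with a provirus in an intron on the other strand, 23 rose in WT, 24 in DNMT TKO and 21 in TET TKO, and of the 13 with one in an intron on the same strand 3, 2 and 2. Where the gene's start lay within 10 kb of a provirus, 9, 6 and 7 of 36 rose on the same strand and 6, 5 and 6 of 39 on the other strand. On exons these were 3, 3 and 3 of 3 on the same strand and 1, 0 and 0 of 3 on the other. The largest rises among genes with at least 200 reads were those of Gm5699, Gm17672, Gm12011, Clec4b2 and Clec2g.
Clec4b2, a C-type lectin gene, starts 8874 bp from chr6:123108337-123114037 on the same strand. It had no read in WT shEmpty and 5, 17 and 24 reads in WT shKap1 libraries, 1, 0 and 0 and then 204, 92 and 132 in DNMT TKO, and none and then 39 and 25 in TET TKO. The provirus beside it had 11 and 444 reads in the WT shEmpty and shKap1 libraries together, 19 and 1532 in DNMT TKO and 10 and 363 in TET TKO, so that both were highest in Kap1-depleted DNMT TKO cells.
Clec2g, another C-type lectin gene, starts 9289 bp from chr6:128872940-128875110 on the same strand, and the genotypes stood in another order in the gene than in the provirus. It had 34, 61 and 47 reads in WT shKap1, 16, 13 and 8 in DNMT TKO shKap1 and 281 and 314 in TET TKO shKap1 libraries. The provirus had 50, 552 and 61 reads in these groups. Gm5699, 5194 bp from chr1:31061944-31064548 on the other strand, rose by log2 4.72, 5.85 and 7.12 in WT, DNMT TKO and TET TKO, with 6, 19 and 5 reads of the provirus in the Kap1-depleted groups. For Gm17672 the provirus overlaps an exon on the same strand. No read that joins a provirus to a gene was examined, so that a shared transcript was not tested.

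Among 28 genes of the silencing machinery (KAP1 and its partners, H3K9 methyltransferases, DNMT and TET enzymes), 3 rose on Kap1 depletion in WT, a share close to the 10.8% of all genes, namely the TET enzyme gene Tet3 (log2 1.80), the H3K9 methyltransferase gene Suv39h1 (1.21) and the DNA methyltransferase gene Dnmt3a (1.15), and 1, Trim28, fell. In DNMT TKO none rose and Trim28 fell. In TET TKO Dnmt3a rose (1.26) and Trim28 fell.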

How the data were processed

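RNA was measured in 16 libraries (stranded mRNA kit, 100-bp reads). The authors mapped unique reads to mm9 with HISAT2 2.0.1 and deposited read counts per gene (featureCounts 1.5.1) and per merged TE integrant (multicov of bedtools 2.25, by strand), with versions from the submitters' processing notes. KAP1, H3K9me3, H3K4me3 and H3K27me3 regions and counts of 5hmC and input reads over them were deposited as well, the last 2 kinds of region with a peak score per replicate that was not used beyond the authors' own cut.

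Counts were analysed as deposited with edgeR 4.0.16 in R 4.3.3 (robust quasi-likelihood test, group as the single factor, 9 contrasts). Library sizes and TMM factors came from genes, TEs with at least 16 reads were kept, and p-values were adjusted by Benjamini-Hochberg over all 123880 TEs. Calls were made at 2-fold or more with an adjusted p under 0.05. The SE given with a fitted log2 change is its absolute value divided by the square root of the test's F statistic. It was thus derived from the test and is no standard error reported by the fit, least of all where groups had few reads. Genes were tested likewise (20321). DESeq2 1.42.0 and limma 3.58.1 (voom) were alternatives. The fit was tested on simulated data. Folds against groups without reads are lower bounds at 3 reads over the group. No fold was formed where both groups had at most 3 reads, and medians with lower bounds leave these proviruses out. Counting intervals of ratios and shares are exact, at 95%, and cover counting error only.

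A region overlapped a provirus by at least 1 base. 5hmC levels are log2 ratios of 5hmC to input reads per total over all region sets, with a pseudocount of 1 read. Place in genes and sequences used an mm9 annotation and genome, and bedtools 2.31.1. Of the TE reads in exons of genes with at least 100000 reads, 99.9% lay on TEs of the gene's strand, and in their introns 96.4%, so that sense exonic and sense intronic proviruses can hold reads of the gene. The 4 hMeDIP libraries whose titles and file names conflict were given no group.

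The members, gene lists and tests were chosen with earlier results of these data known. Proviruses named are, among those called with at least 200 reads, the 3 largest changes in each direction per knockdown, interaction and empty-hairpin genotype contrast, then the 5 with most reads and the longest. Genes named are those targeted, and the 5 largest rises beside a provirus. Called genes of the pluripotency and silencing lists are named as well, after their values were seen. The replicates are independent experiments.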

Additional observations from a re-analysis of the deposited data

Results flagged for a closer look

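The change on Kap1 depletion was called different between genotypes at 10 named proviruses, by the interaction term of the edgeR fit (log2, knockout minus WT, adjusted over all TEs). For DNMT TKO it was larger at chr11:104720930-104723643 (8.09, SE 1.97, adjusted p = 0.011), chr8:79824682-79828583 (6.99, SE 1.92, 0.033), chr10:17958917-17961581 (4.64, SE 1.03, 0.0015), chr1:57641940-57645675 (4.14, SE 0.71, 1.3e-05) and chr10:55435353-55440642 (3.35, SE 0.71, 0.00039). It was smaller at chr15:34155372-34159213 (-5.92, SE 1.10, 0.00036), chr5:136680091-136684461 (-2.54, SE 0.70, 0.029) and chr5:30549586-30556697 (-1.71, SE 0.27, 2.3e-07). For TET TKO it was larger at chr1:57641940-57645675 (4.30, SE 0.85, 0.00054) and chr5:30549586-30556697 (1.91, SE 0.38, 0.00032), and smaller at chr10:62071638-62076077 (-3.93, SE 0.85, 0.013), chr5:110363048-110366378 (-3.48, SE 0.56, 0.0038) and chr5:136680091-136684461 (-3.07, SE 0.73, 0.0074). Several of these calls were lost when single libraries were left out, as given in the Results. The shares called were near or below those of all TEs, except for smaller rises in TET TKO (0.517%, against 0.242%).

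An hMeDIP library without a group had 2.54% of its region reads in KAP1 regions on IAPLTR2 proviruses, above the 1.08% of the shEmpty 5hmC library. The other 3 such libraries had 0.975%, 1.22% and 1.17%.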

How the results depend on the processing

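The counts called on Kap1 depletion stayed within 1.5 times their reported values under all alternatives run (588 to 741 in WT, 647 to 935 in DNMT TKO, 595 to 838 in TET TKO). Leaving out single libraries gave 609 to 702, 875 to 927 and 629 to 772, and for the Kap1-depleted genotype comparisons 332 to 431 (DNMT TKO) and 130 to 184 (TET TKO). DESeq2 gave 220 and 92 there, against 424 and 183. With shEmpty, the 29 calls for DNMT TKO became 16 by limma-voom, 18 with only the groups compared, 12 by DESeq2, 13 with a minimum of 1 read and 14 to 29 without single libraries. The 11 for TET TKO became 5, 4 and 5 with only the groups compared, by DESeq2 and with a minimum of 1 read, and 6 to 11 without single libraries. The 16 interaction calls for DNMT TKO became 102 by limma-voom (14 shared), 9 with a minimum of 1 read and 8 to 17 without single libraries. The 7 for TET TKO became 32 (4 shared), 3 by DESeq2, 4 with a minimum of 1 read and 1 to 7. Leaving out a TET TKO library leaves 1 in that group, which is then taken to vary like the other groups. The causes were not tested.

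Same-numbered shEmpty and shKap1 experiments deviated together by correlations of 0.043 to 0.255 over TEs and 0.311 to 0.489 over genes in WT, 0.024 to 0.278 and 0.222 to 0.579 in DNMT TKO, and -0.0066 and -0.037 in TET TKO. Over genes, experiment 2 against experiment 3 gave 0.318 and 0.335 in WT and 0.311 and 0.421 in DNMT TKO. The correlations in WT and DNMT TKO thus set experiment 1 apart from experiments 2 and 3, and pairing by number was not shown. Fitted with a replicate block, the counts were 683, 923 and 756 for Kap1 depletion in WT, DNMT TKO and TET TKO, 27 and 10 for the shEmpty comparisons, 414 and 176 for the shKap1 comparisons and 16 and 6 for the interactions, each within 1.5 times the count without it, as were the counts of genes next to proviruses, a block chosen after seeing the data.

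Scaled to the total of TE reads, the summed changes were log2 5.31, 5.66 and 5.19, and TET TKO against WT after Kap1 depletion 0.21. Without single libraries the summed change in TET TKO was 5.85 to 5.96. The length difference went to 2.27 in WT, 1.86 in TET TKO, -0.62 for DNMT TKO and -0.75 for TET TKO against WT by quartiles of length. With at least 100 reads it was 1.07 in WT, -0.0042 (reversed) in DNMT TKO, 0.41 in TET TKO, -0.52 and -0.72. The lead of antisense intronic proviruses was then 0.091, 0.28, -0.0799 (reversed) and, for TET TKO against WT, 0.047. Without that minimum, their lead over all proviruses outside genes, near ones included, was 0.33 in TET TKO. The lead of IAPLTR2_Mm over IAPLTR2b with at least 100 reads was 0.95, 0.35, 0.45 and 0.063. The share of regions with more 5hmC was 76.3% scaled to H3K4me3 reads and 91.4% with at least 30 reads. Of the values of named proviruses under alternatives, 735 kept their side of the threshold, 65 lost it and 0 reversed. The 735 include settings that could not lose a call, as with no fold threshold, or that left out a library outside the contrast. The most lost under any setting were 9, against 23 kept, without WT shEmpty replicate 3. Depth limits the shEmpty comparisons, since 609 proviruses had no read in WT shEmpty cells.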
